A study of Mus musculus with 6 samples.

Results

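The genes described here are 34 mouse genes of contractile cells, myofibroblasts and mural cells, followed through bulk RNA-seq of stromal cells sorted by a reporter of p16. They are a list of names, and each of the 34 symbols matched 1 of the 55536 gene identifiers in the count files. By role, 10 encode proteins characteristic of smooth muscle contraction, 14 are actomyosin and adhesion genes that many cell types express, 2 mark the fibroblasts of fibrotic tissue and 8 are markers of mural cells. The mural markers are treated apart, since the contractile genes are shared between mural cells and myofibroblasts.

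There were 6 libraries. The p16+ group had 3 libraries of tdTomato-positive cells and the p16- group had 3 libraries of tdTomato-negative cells, all from C57Bl/6 mice that carried the p16 reporter. Cells of both groups had been sorted as CD45-CD31-CD29+, a gate that takes out leukocytes and endothelium and takes no step against pericytes or smooth muscle cells. Per the labels, the tissue came from a model of foreign body fibrosis. The protocol describes bilateral quadriceps resection in mice aged 10 weeks, with polycaprolactone particles (30 mg), decellularized matrix or saline (50 uL) placed in the wound, and collection 1 or 6 weeks later. The labels do not tie these libraries to 1 of the implants or to 1 of the times. No label states that the replicates were separate animals, so the p-values measure the spread between these libraries, which may be technical.

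Contraction outside striated muscle rests on actin filaments coated by tropomyosin and pulled by myosin II, whose motor is switched on when myosin light chain kinase phosphorylates the regulatory light chain. Smooth muscle cells and pericytes, together called mural cells, wrap vessels and carry this machinery constitutively, while fibroblasts assemble it in wounds and become myofibroblasts, with smooth muscle alpha-actin in their stress fibres. Acta2 or Tagln alone therefore cannot tell a myofibroblast from a mural cell, whereas Rgs5, Kcnj8, Abcc9, Higd1b and Cspg4 are used to recognise mural cells.

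Depth was alike, with totals of 35253406 to 37861713 in the p16+ libraries and 36507067 to 39103909 in the p16- libraries. At this depth a count of 3 corresponds to 0.0767 to 0.0851 CPM (edgeR's measure of counts relative to library size), far below the level of any of the 34 genes. The first principal component, with 41.2% of the variance, separated the groups, and the second, with 18.1%, set p16+ replicates 2 and 3 apart. Cdkn2a, the gene that encodes p16, had 6.90, 8.82 and 7.73 CPM in p16+ against 2.41, 1.76 and 2.20 CPM in p16- (log2 fold change 1.88, adjusted p = 2e-05 by the test named below). Among markers of other cells, the summed level of 8 endothelial genes was 68.8 to 96.4 CPM in p16+ against 174 to 206 CPM in p16-. Most of that sum was Tek, which fell, at 42.9 to 57.9 CPM in p16+ against 153 to 180 CPM in p16-. The direction of the sum is that of Tek, while 3 of the 8 (Pecam1, Emcn and Vwf) rose. The summed level of 9 macrophage and leukocyte genes was 251 to 289 CPM in p16+ against 181 to 200 CPM in p16-, and 4 of the 9 rose. That of 4 Schwann cell genes was 24.4 to 33.1 CPM in p16+ against 45.7 to 82.3 CPM in p16-, and 3 of the 4 fell. Over 7 fibroblast genes the sum was 50038 to 51138 CPM in p16+ against 33389 to 36316 CPM in p16-, most of it Col1a1, and 2 of the 7 (Col1a1 and Lum) rose while 3 (Ly6a, Pi16 and Dpp4) fell. Without Col1a1 the sum of the other 6 was 12296 to 13295 CPM in p16+ against 13696 to 14670 CPM in p16-. Skeletal muscle fibre genes summed to 25.2 to 36.2 CPM in p16+ against 22.8 to 30.3 CPM in p16- over 14 genes, of which Myh7 and Tnnc2 had no count in some libraries. Satellite cell and myoblast genes summed to 12.8 to 18.3 CPM in p16+ against 9.24 to 13.3 CPM in p16- over 6 genes, of which Pax7 and Cdh15 rose and Myog fell, to 0.272 to 0.525 CPM in p16+ against 1.23 to 4.59 CPM in p16-. The part of these other cells in the results that follow was not tested. By the same test, 8.69% of all genes tested rose and 8.04% fell.

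Most of the contractile and myofibroblast genes that changed were higher in the p16+ libraries. Of the 34 genes, 19 rose in p16+ cells, where 8.69% of the 15903 genes tested did, and 1, Myh10, fell, where 8.04% of the genes tested did. The other 14 did not pass the threshold of 0.05 on the adjusted p of edgeR's quasi-likelihood test, the test behind every adjusted p here unless another is named. For 19 of the 34 every p16+ library lay above every p16- library, against 16.6% of genes tested, and for 2, Myh10 and Tpm3, every p16+ library lay below, against 16.5%. The median log2 fold change was 0.37 over the 34 genes and -0.01 over all genes tested, and 3 genes (Actn1, Lrrc15 and Cthrc1) rose by 2-fold or more. These genes are mostly abundant, and abundant genes pass the test more often. Among genes with a mean log2 CPM of at least 5, a level chosen after the values were seen, 14.5% of 4916 were higher and 13.3% lower, while of the 28 genes of the set at that level 17 were higher and 1 lower. Higher calls made up 52.0% of all calls, and 36.0% when libraries were scaled by their size alone, a setting under which 16 of the 34 were higher and 2 lower. In sorted bulk samples a larger share of cells of a type and more RNA per cell cannot be told apart.

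**Figure D1:**
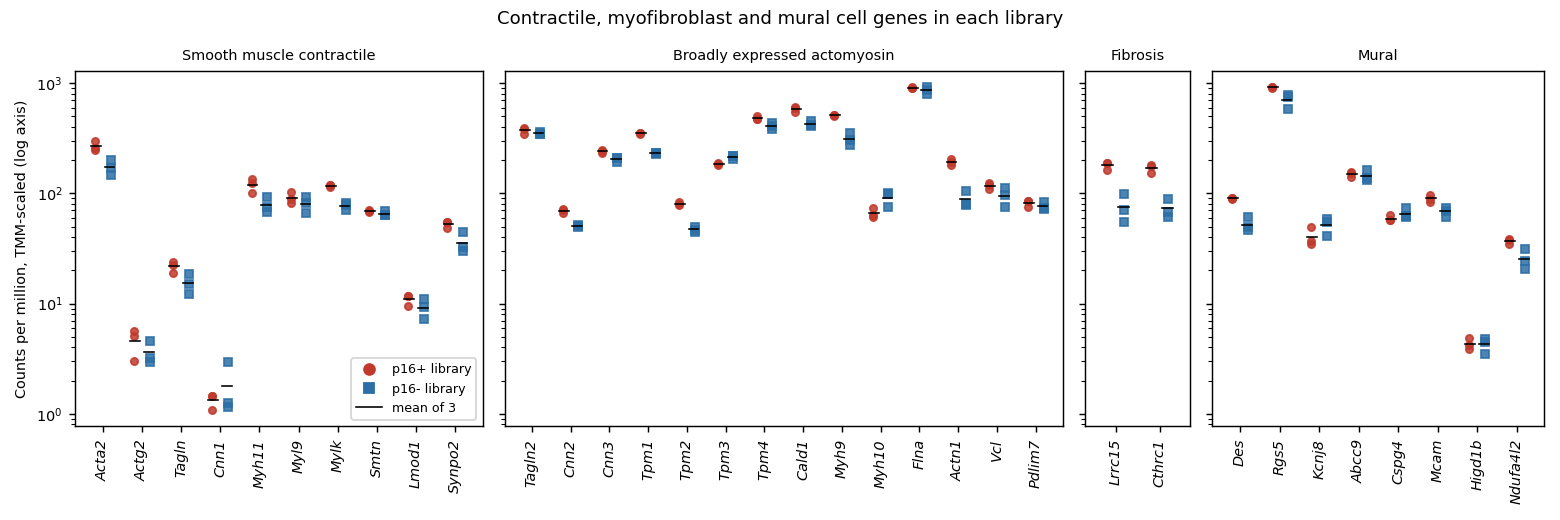
TMM-scaled CPM on a log axis for each of the 34 genes, in 3 p16+ libraries (red circles) and 3 p16- libraries (blue squares), with the mean of each group as a black line and 1 panel per role. Lrrc15, Cthrc1, Actn1, Tpm1 and Mylk show groups that are far apart, while Higd1b, Flna and Smtn show groups that overlap.

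**Figure D2:**
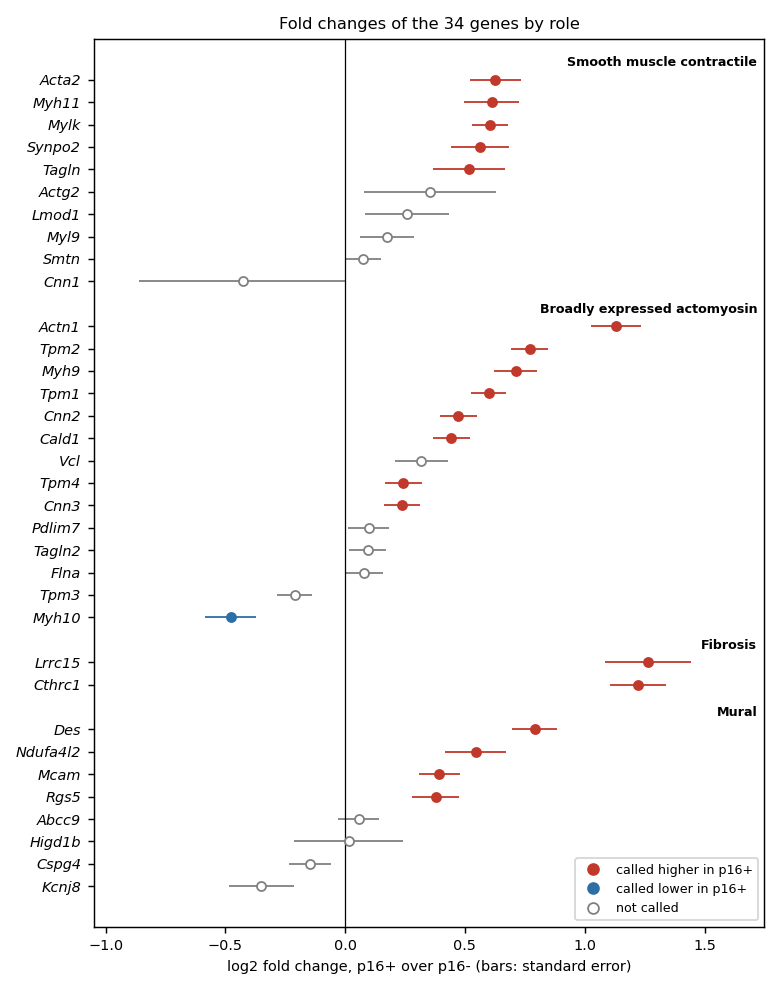
Log2 fold change of each gene, p16+ over p16-, with its standard error as a bar, by role and in falling order. Filled red points are the 19 genes called higher in p16+, the filled blue point is Myh10, called lower, and open points are the 14 genes not called.

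Promoter sequences of 28 of the 34 genes were found in RefSeq tables on GRCm38.p6. Their 30 windows run from 250 bases before to 50 bases after the annotated start. No window was found for Tagln, Myh11, Actg2, Cthrc1, Ndufa4l2 and Higd1b, so nothing below covers these genes. The 30 windows were searched for the DNA elements that the textbook regulators of the set bind, since many of the genes moved together. The CArG box, the element of serum response factor, is CC, then 6 bases that are each A or T, then GG. It stood in 3 of the 30 windows (10.0%), those of Cnn2, Myl9 and Vcl, and in 1.63% of the 32851 promoter windows of the genome. The element CATTCC of TEAD factors, read on either strand, stood in 11 of the 30 windows (36.7%) and in 14.7% of all windows. Its windows were those of Abcc9, Acta2, Cald1, Flna, Lmod1, Myh10, Mylk, Smtn, Tagln2, Tpm1 and Vcl. The Notch effector element GTGGGAA, on either strand, stood in 1 of the 30 windows, that of Actn1, and in 6.38% of all windows. No 2 matches of different elements overlapped, and a window without a match says only that these letters are not in it. Near matches were not counted in any window. The Acta2 window holds ccctatatgg and ccttgtttgg, each 1 base away from the CArG form searched. So are ccatatatag and ccaaaaaagt in the Tpm1 window and ccttgtaagg in the Myl9 window. Further near matches may stand in these and in other windows. The 250 bases before the start are shown for Acta2 and Tpm1, which rose and hold CATTCC. They are also shown for the 3 genes with an exact CArG box, of which Cnn2 rose and Myl9 and Vcl did not pass the test. Capitals mark CATTCC (or GGAATG, its other strand) and exact CArG boxes.
Acta2 (chr19:34255374-34255623, minus strand): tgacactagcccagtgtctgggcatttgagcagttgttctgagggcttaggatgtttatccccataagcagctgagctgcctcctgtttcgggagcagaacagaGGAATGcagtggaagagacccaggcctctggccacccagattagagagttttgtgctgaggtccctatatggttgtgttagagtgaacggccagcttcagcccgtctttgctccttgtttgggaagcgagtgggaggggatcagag
Tpm1 (chr9:67049214-67049463, minus strand): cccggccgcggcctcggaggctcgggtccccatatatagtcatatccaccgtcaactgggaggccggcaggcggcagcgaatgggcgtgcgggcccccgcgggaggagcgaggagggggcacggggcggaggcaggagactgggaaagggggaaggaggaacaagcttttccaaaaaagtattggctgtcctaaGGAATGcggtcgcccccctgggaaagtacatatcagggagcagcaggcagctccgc
Cnn2 (chr10:79988350-79988599, plus strand): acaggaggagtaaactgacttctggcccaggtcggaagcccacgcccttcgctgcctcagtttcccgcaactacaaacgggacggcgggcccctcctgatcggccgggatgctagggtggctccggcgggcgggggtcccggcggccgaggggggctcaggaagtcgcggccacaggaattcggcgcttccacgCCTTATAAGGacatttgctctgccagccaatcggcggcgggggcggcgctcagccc
Myl9 (chr2:156775214-156775463, plus strand): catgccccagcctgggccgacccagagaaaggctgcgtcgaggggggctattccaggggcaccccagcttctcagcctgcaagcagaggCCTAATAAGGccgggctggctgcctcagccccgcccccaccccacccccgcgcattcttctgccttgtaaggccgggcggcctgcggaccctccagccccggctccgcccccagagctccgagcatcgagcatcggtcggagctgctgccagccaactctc
Vcl (chr14:20929148-20929397, plus strand): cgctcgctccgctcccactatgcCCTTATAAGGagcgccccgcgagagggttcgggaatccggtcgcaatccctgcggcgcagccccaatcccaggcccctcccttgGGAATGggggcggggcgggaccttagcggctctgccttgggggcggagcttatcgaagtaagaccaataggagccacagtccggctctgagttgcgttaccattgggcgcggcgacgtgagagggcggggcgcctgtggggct
The CATTCC element began 146 bases before the start in Acta2, 56 in Tpm1 and 143 in Vcl. The CArG box began 56 bases before the start in Cnn2, 161 in Myl9 and 227 in Vcl. Genes with CATTCC in the window included Acta2 and Tpm1 among those that rose, Myh10, which fell, and Smtn, Flna and Tagln2 among those that did not pass.

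Of the 10 smooth muscle contractile genes, 5 rose in p16+ cells (Acta2, Myh11, Mylk, Synpo2 and Tagln), where 8.69% of all genes tested did. The other 5 did not pass the test. The log2 fold changes of the 10 ranged from -0.43 to 0.63, with a median of 0.44, and none reached 2-fold. Acta2 (chromosome 19, 34241090 to 34255590, minus strand, GRCm38), smooth muscle alpha-actin, had 297, 246 and 260.5 CPM in p16+ against 171, 148 and 202 CPM in p16-. The lowest p16+ library lay above the highest p16- library, and the difference was 1.54-fold (log2 fold change 0.63, standard error 0.11, adjusted p = 0.00055). Myh11 (chromosome 16, 14194535 to 14291372, minus strand), the myosin heavy chain of differentiated smooth muscle, had 134, 102 and 124 CPM in p16+ against 74.9, 67.4 and 93.1 CPM in p16-. Its groups did not overlap either, and its log2 fold change of 0.61 (standard error 0.12, adjusted p = 0.00149) was close to that of Acta2. The adjusted p of Myh11 was 0.0708 without p16- replicate 1, a setting that leaves 3 of the 5 smooth muscle calls. Mylk (chromosome 16, 34745210 to 35002420, plus strand), the kinase that activates myosin II, had 115, 119 and 118 CPM in p16+ against 78.2, 71.3 and 81.9 CPM in p16-. The p16+ libraries differed from each other by only a few CPM, and the log2 fold change was 0.60 (standard error 0.08, adjusted p = 3.9e-05).

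Synpo2, an actin-bundling protein of the Z-disc and stress fibres, had 54.5, 48.7 and 54.7 CPM in p16+ against 32.8, 29.9 and 44.2 CPM in p16- (log2 fold change 0.56, standard error 0.12, adjusted p = 0.004). Tagln, the actin-binding protein transgelin and an early marker of the smooth muscle programme, had 23.9, 19.0 and 22.4 CPM in p16+ against 14.9, 12.2 and 18.6 CPM in p16-. The lowest p16+ library and the highest p16- library were nearly level, at a log2 fold change of 0.52 (standard error 0.15, adjusted p = 0.026). The call of Tagln was lost in several settings. Leaving out p16+ replicate 1 gave an adjusted p of 0.111, p16+ replicate 3 0.0937, p16- replicate 1 0.0511 and p16- replicate 2 0.1. Scaling by library size alone gave 0.0537. Genes on the opposite strand, Pcsk7 and the gene model Gm48529, covered 67.9% of the exonic length of Tagln, and fragments in such overlaps cannot be assigned without strand, so its level is uncertain. Pcsk7 itself had 35.5 ± 3.42 CPM in p16+ against 31.5 ± 1.83 CPM in p16- (SD, n = 3 libraries each, as for every mean below; adjusted p = 0.281).

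The 5 smooth muscle genes that did not pass were Myl9, Lmod1, Smtn, Actg2 and Cnn1. Myl9, the regulatory light chain that Mylk phosphorylates, had 104, 81.2 and 88.5 CPM in p16+ against 82.0, 66.9 and 93.5 CPM in p16-. These groups overlapped (log2 fold change 0.17, standard error 0.11, adjusted p = 0.353). Lmod1, which nucleates actin filaments in smooth muscle, averaged 11.0 ± 1.26 CPM in p16+ against 9.19 ± 1.94 CPM in p16- (adjusted p = 0.375). Smtn, smoothelin, averaged 68.9 ± 1.67 CPM in p16+ against 65.4 ± 3.04 CPM in p16- (adjusted p = 0.571), with 16.3% of its exonic length shared with gene models on its locus. Cnn1 and Actg2, calponin 1 and the actin of visceral smooth muscle, were scarce. Cnn1 had 1.46, 1.44 and 1.08 CPM in p16+ against 1.25, 1.16 and 2.95 CPM in p16-, and p16- replicate 3 stood above all other libraries (log2 fold change -0.43, standard error 0.43, adjusted p = 0.581). Without that library the log2 fold change was 0.14. Actg2 had 5.69, 5.09 and 3.03 CPM in p16+ against 2.97, 3.23 and 4.62 CPM in p16- (adjusted p = 0.45). The coding sequences of Acta2, Actg2, Actb and Actg1 are near copies of each other, and fragments that map to several of them are uncertain in any of these counts.

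Among the 14 broadly expressed actomyosin and adhesion genes, 8 rose (Actn1, Tpm2, Myh9, Tpm1, Cnn2, Cald1, Tpm4 and Cnn3), 1 fell (Myh10) and 5 did not pass. Their median log2 fold change was 0.28 over the 14. The shares of all genes tested were 8.69% that rose and 8.04% that fell. Actn1 (chromosome 12, 80167547 to 80260371, minus strand), the alpha-actinin that cross-links actin in stress fibres and at focal adhesions, had 182, 203 and 192 CPM in p16+ against 77.7, 106 and 80.6 CPM in p16-. Every p16+ library was far above every p16- library, at 2.19-fold (log2 fold change 1.13, standard error 0.10, adjusted p = 1.82e-06). Myh9 (chromosome 15, 77760587 to 77842175, minus strand), the heavy chain of nonmuscle myosin IIA, had 507, 512 and 509 CPM in p16+ against 275, 355 and 303 CPM in p16- (log2 fold change 0.71, standard error 0.09, adjusted p = 3.97e-05). Its p16+ libraries were nearly equal and its p16- libraries were spread. Myh10 (chromosome 11, 68691559 to 68816632, plus strand), the heavy chain of nonmuscle myosin IIB, went the other way, with 73.1, 63.5 and 60.7 CPM in p16+ against 75.6, 99.9 and 99.3 CPM in p16-. The groups of Myh10 did not overlap, though p16+ replicate 1 and p16- replicate 1 were close (log2 fold change -0.48, standard error 0.11, adjusted p = 0.00468).

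Tropomyosins differed from one another. Tpm1 (chromosome 9, 67022590 to 67049406, minus strand) had 345, 355 and 351 CPM in p16+ against 230.5, 229 and 233 CPM in p16-, with a spread of a few CPM inside each group (log2 fold change 0.60, standard error 0.07, adjusted p = 2.32e-05). Tpm2 (chromosome 4, 43514711 to 43523765, minus strand) had 83.2, 78.0 and 80.5 CPM in p16+ against 49.9, 46.8 and 45.0 CPM in p16- (log2 fold change 0.77, standard error 0.08, adjusted p = 4.01e-06). These are the tropomyosin genes best known from muscle and from the high molecular weight forms of stress fibres. Tpm3, a source of short cytoskeletal forms, had 180.3, 188 and 184 CPM in p16+ against 218, 204 and 217 CPM in p16-, below every p16- library but short of the threshold (log2 fold change -0.21, standard error 0.07, adjusted p = 0.0634). It passed as lower with library sizes alone (adjusted p = 0.0121) and with DESeq2 (0.0225). Tpm4 averaged 483 ± 14.0 CPM in p16+ against 408 ± 24.3 CPM in p16- (log2 fold change 0.24, standard error 0.08, adjusted p = 0.0425).

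Cald1, caldesmon, which binds actin and tropomyosin, averaged 581 ± 28.4 CPM in p16+ against 427 ± 23.4 CPM in p16- (log2 fold change 0.44, standard error 0.08, adjusted p = 0.000811). Cnn2, the calponin of non-muscle and smooth muscle cells, had 71.1, 65.8 and 72.1 CPM in p16+ against 50.3, 51.3 and 49.0 CPM in p16- (log2 fold change 0.47, standard error 0.08, adjusted p = 0.000389). Cnn3, the acidic calponin, had 239.7, 248 and 234 CPM in p16+ against 194, 209 and 209 CPM in p16- (log2 fold change 0.24, standard error 0.07, adjusted p = 0.0389). Both small differences, of Cnn3 and Tpm4, lost their call with library sizes alone (adjusted p = 0.14 and 0.145) and without p16+ replicate 1, 2 or 3 or p16- replicate 3 (0.0862 to 0.179). The gene model Gm42928 shared 17.7% of the exonic length of Cnn3. The 5 genes that did not pass included, beside Tpm3, the focal adhesion protein Vcl (vinculin), which averaged 117 ± 7.16 CPM in p16+ against 93.8 ± 18.1 CPM in p16- (log2 fold change 0.32, standard error 0.11, adjusted p = 0.0673). Vcl passed as higher with DESeq2 (0.0422), with no filter on low counts (0.00381) and without p16- replicate 2 (0.0048), and 25.5% of its exonic length overlapped Ap3m1. Flna, the actin cross-linker filamin A, averaged 910.3 ± 13.8 CPM in p16+ against 862 ± 62.2 CPM in p16- (adjusted p = 0.576). Tagln2 averaged 375 ± 23.4 CPM in p16+ against 351 ± 7.76 CPM in p16- (adjusted p = 0.479), and Pdlim7, a scaffold of actin filaments, 81.5 ± 5.62 CPM in p16+ against 76.2 ± 6.65 CPM in p16- (adjusted p = 0.503).

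In 4 of 5 gene families, the shares of some members did not overlap between the groups. These shares are of the family's summed level per kilobase of exonic length. They are a description with no test, and the scaling of libraries does not affect them. Shares of a family add up to the whole, so a higher share of any member lowers the rest together. No count was made for other families. For levels of single genes, every p16+ library lay above every p16- library in 16.6% of genes tested and below in 16.5%. Among actins, Acta2 took 16.8%, 14.6% and 15.3% in p16+ and 8.76%, 8.23% and 10.2% in p16-. The shares of the cytoplasmic actins were lower in every p16+ library, with means of 63.3% in p16+ and 66.6% in p16- for Actb and of 20.8% in p16+ and 24.1% in p16- for Actg1. Among tropomyosins, Tpm3 made up 9.06% to 9.22% of the sum in p16+ against 11.9% to 13.6% in p16-, while Tpm1 averaged 16.3% in p16+ and 13.1% in p16- and Tpm2 8.37% in p16+ and 5.97% in p16-. Tpm4 kept the largest share, 66.2% in p16+ and 68.1% in p16-, with overlapping groups. Among myosin II heavy chains, Myh10 took 10.95%, 10.3% and 9.44% in p16+ and 18.8%, 20.8% and 21.0% in p16-, with means of 10.2% in p16+ and 20.2% in p16-. Myh9 averaged 64.2 ± 2.79% in p16+ and 55.7 ± 3.99% in p16-, without overlap, and Myh11 25.6 ± 2.59% in p16+ and 24.0 ± 4.14% in p16-, with overlap. Among calponins Cnn2 averaged 26.2% in p16+ and 23.2% in p16-, Cnn3 73.3% in p16+ and 76.1% in p16-, and Cnn1 under 1.21% in every library. The family sums of tropomyosins, calponins and myosin heavy chains were higher in every p16+ library than in any p16- library and the sum of the 4 actins was lower, also with library sizes alone. In the fifth family, the transgelins, neither the shares nor the sum separated the groups. Tagln ranged over 4.82% to 6.31% in p16+ libraries and 3.56% to 5.31% in p16- libraries, the rest being Tagln2. These shares are as uncertain as the level of Tagln, which has 67.9% of its exonic length overlapped by other genes.

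**Figure D3:**
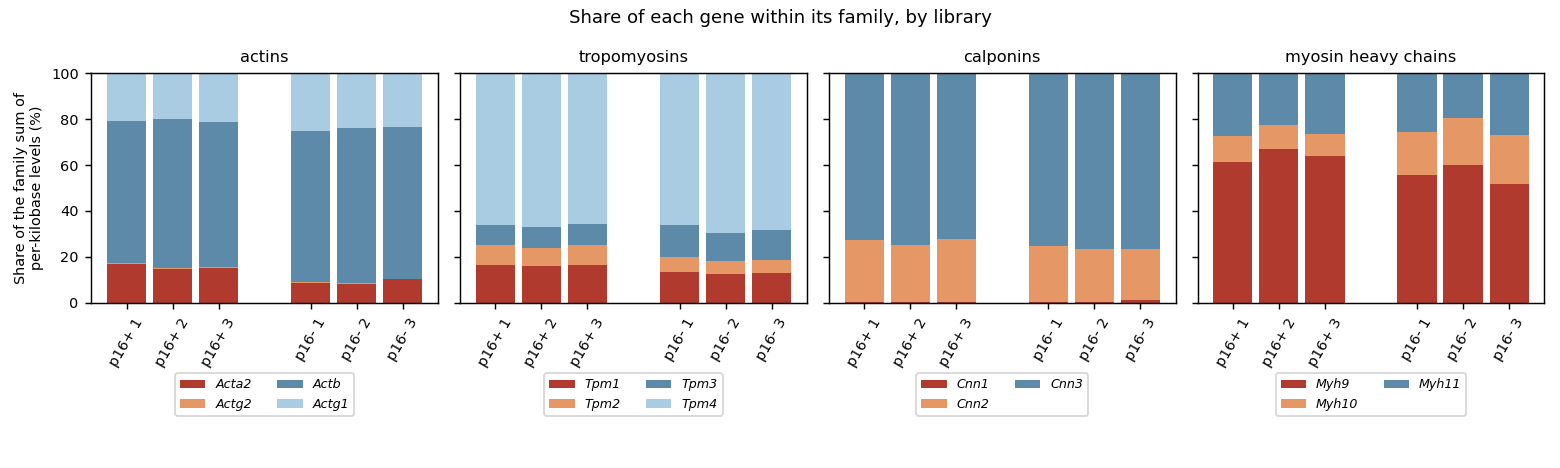
Share of each gene in the sum of per-kilobase levels of its family, in percent, for actins, tropomyosins, calponins and myosin heavy chains, with 1 bar per library and the 3 p16+ libraries left of the 3 p16- libraries. Acta2 takes 14.6% to 16.8% of the actins in p16+ and 8.23% to 10.2% in p16-, and Myh10 takes 9.44% to 10.95% of the myosins in p16+ and 18.8% to 21.0% in p16-.

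The 2 fibrosis genes were the most strongly raised of the 34. Lrrc15 (chromosome 16, 30269302 to 30283256, minus strand), a membrane protein induced in fibroblasts by TGF-beta, had 188, 190.4 and 163 CPM in p16+ against 55.3, 98.7 and 71.2 CPM in p16-. The p16- libraries spread widely but stayed below all p16+ libraries, at 2.40-fold (log2 fold change 1.26, standard error 0.18, adjusted p = 0.000984). Cthrc1 (chromosome 15, 39076932 to 39087121, plus strand), a secreted protein of fibroblasts in fibrotic tissue, had 178, 181 and 152 CPM in p16+ against 61.6, 89.4 and 67.7 CPM in p16- (log2 fold change 1.22, standard error 0.12, adjusted p = 2.52e-06). Both genes ordered the libraries the same way inside each group, with replicate 2 highest in p16+ and in p16-. Of 14 other genes of fibrotic fibroblasts and their matrix, 11 rose (78.6%) and 2 fell (14.3%), with a median log2 fold change of 0.60. Over all genes tested, 8.69% rose and 8.04% fell. Among genes with a mean log2 CPM of at least 5 the shares were 14.5% and 13.3%. Tnc, the wound matrix protein tenascin C, averaged 663 ± 59.5 CPM in p16+ against 236 ± 50.2 CPM in p16- (log2 fold change 1.49, adjusted p = 7.6e-07). The collagen VIII chain gene Col8a1 averaged 397 ± 20.6 CPM in p16+ against 143 ± 27.4 CPM in p16- (log2 fold change 1.47, adjusted p = 2.64e-07), and Cdh11, a cadherin of fibroblasts, 310.2 ± 17.7 CPM in p16+ against 185 ± 5.81 CPM in p16- (log2 fold change 0.75, adjusted p = 5.03e-06). The 2 that fell were Itga11, a collagen-binding integrin chain of myofibroblasts, at 135 ± 7.67 CPM in p16+ against 229 ± 19.7 CPM in p16- (log2 fold change -0.76, adjusted p = 9.26e-06), and Fap, a surface protease of activated fibroblasts, at 295 ± 4.5 CPM in p16+ against 365 ± 8.66 CPM in p16- (log2 fold change -0.31, adjusted p = 0.00742). The count of 2 was 1 without p16+ replicate 2 or p16- replicate 3. Fap was named after its value was seen.

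Mural markers were divided. Of the 8, 4 rose (Des, Ndufa4l2, Mcam and Rgs5) and 4 did not pass (Abcc9, Higd1b, Cspg4 and Kcnj8), with a median log2 fold change of 0.22. The share of all genes tested that rose was 8.69%. Des (chromosome 1, 75360329 to 75368579, plus strand), the intermediate filament protein desmin of pericytes, smooth muscle and striated muscle, had 91.6, 89.8 and 89.2 CPM in p16+ against 60.5, 46.5 and 49.3 CPM in p16-. Its groups were well apart, with a log2 fold change of 0.79 (standard error 0.09, adjusted p = 1.85e-05). Rgs5 (chromosome 1, 169655501 to 169695813, plus strand), a regulator of G protein signalling and a main pericyte marker, had 895, 922 and 926 CPM in p16+ against 743, 583 and 785 CPM in p16- (log2 fold change 0.38, standard error 0.10, adjusted p = 0.0137). Leaving out p16+ replicate 2 brought the adjusted p of Rgs5 to 0.0596, and leaving out p16+ replicate 3 brought it to 0.0698. Mcam, an adhesion molecule of mural and endothelial cells, had 96.1, 84.2 and 89.5 CPM in p16+ against 69.8, 61.6 and 74.2 CPM in p16- (log2 fold change 0.39, standard error 0.09, adjusted p = 0.0043). Ndufa4l2, a mitochondrial protein induced in low oxygen and enriched in pericytes, had 38.4, 35.02 and 37.7 CPM in p16+ against 31.3, 20.7 and 24.2 CPM in p16- (log2 fold change 0.54, standard error 0.13, adjusted p = 0.0073).

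Kcnj8 and Abcc9, the pore and the regulatory subunit of the ATP-sensitive potassium channel of mural cells, did not pass the test. Kcnj8 had 49.4, 37.0 and 34.9 CPM in p16+ against 55.5, 41.2 and 57.9 CPM in p16-, with overlapping groups (log2 fold change -0.35, standard error 0.14, adjusted p = 0.0959). It passed as lower without p16+ replicate 1 (adjusted p = 0.0167), without p16- replicate 2 (0.0137) and with no filter on low counts (0.00404). Abcc9 had 153, 142 and 157 CPM in p16+ against 133, 139 and 163 CPM in p16- (log2 fold change 0.06, standard error 0.09, adjusted p = 0.732), and its sign turned to -0.02 with library sizes alone. Cspg4, a proteoglycan of pericytes that other stromal cells can also carry, had 57.6, 63.0 and 56.8 CPM in p16+ against 61.6, 73.1 and 61.7 CPM in p16- (log2 fold change -0.15, standard error 0.09, adjusted p = 0.299). Higd1b, a small membrane protein used as a pericyte marker, was low, at 4.89, 3.84 and 4.20 CPM in p16+ against 4.50, 3.50 and 4.81 CPM in p16-. The groups of Higd1b lay on top of each other (log2 fold change 0.01, standard error 0.23, adjusted p = 0.979).

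The summed level of 13 pericyte and smooth muscle markers was 2814 to 2872 CPM in p16+ against 1881 to 2293 CPM in p16-. The 13 are these 8 with Acta2, Myh11, Notch3, Pdgfrb and Cox4i2. Of the 13, 8 rose, where 8.69% of the genes tested did, and Kcnj8, Abcc9, Cspg4, Higd1b and Cox4i2 did not pass. Most of the sum was Rgs5 and Pdgfrb, and it includes Acta2 and Myh11, contractile genes shared with myofibroblasts. The part that the number of mural cells in each sort plays in the contractile genes was not tested. Of 20 other genes known from mural cells, 9 rose (45%) and 2 fell (10%), with a median log2 fold change of 0.41. Over all genes tested, 8.69% rose and 8.04% fell, so the share that fell was near that of all genes. Ednra, the endothelin receptor of smooth muscle, had 122, 152 and 139 CPM in p16+ against 51.6, 62.9 and 56.9 CPM in p16- (log2 fold change 1.27, standard error 0.10, adjusted p = 2.64e-07). Notch3, the Notch receptor of mural cells, averaged 333 ± 14.0 CPM in p16+ against 195 ± 22.0 CPM in p16- (log2 fold change 0.77, adjusted p = 1.27e-05). Pdgfrb, the receptor that recruits pericytes and is also found on fibroblasts, averaged 725 ± 11.9 CPM in p16+ against 509.9 ± 41.8 CPM in p16- (log2 fold change 0.51, adjusted p = 0.000298). The genes that fell were Casq2, a calcium store protein, at 7.81 ± 0.63 CPM in p16+ against 14.8 ± 1.34 CPM in p16- (log2 fold change -0.92, adjusted p = 0.000255), and Vtn, vitronectin, at 69.9 ± 2.28 CPM in p16+ against 108 ± 21.4 CPM in p16- (log2 fold change -0.63, adjusted p = 0.000965). Vtn was named after its value was seen.

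Regulators of contraction and adhesion proteins outside the set were called in both directions. Of 42 genes, 6 rose (14.3%) and 8 fell (19.0%), and their median log2 fold change was -0.00. Over all genes tested, 8.69% rose and 8.04% fell. Among genes with a mean log2 CPM of at least 5 the shares were 14.5% and 13.3%, but the 42 were not limited to that level. Without p16+ replicate 1, 3 rose. Fhl2, a LIM protein that binds integrins and transcription factors, had 56.9, 60.7 and 55.8 CPM in p16+ against 22.6, 25.7 and 22.1 CPM in p16- (log2 fold change 1.30, standard error 0.09, adjusted p = 1.86e-07). Palld, palladin, a partner of alpha-actinin in stress fibres, averaged 164 ± 9.33 CPM in p16+ against 115 ± 3.08 CPM in p16- (log2 fold change 0.51, adjusted p = 0.000175). In contrast, the focal adhesion proteins paxillin and zyxin were lower in p16+. Pxn had 93.6, 86.8 and 83.2 CPM in p16+ against 142, 144 and 136 CPM in p16- (log2 fold change -0.68, standard error 0.08, adjusted p = 1.06e-05). Zyx had 211, 203 and 178 CPM in p16+ against 307, 293 and 325 CPM in p16- (log2 fold change -0.65, standard error 0.08, adjusted p = 4.98e-05). Both fell while Actn1, whose product shares focal adhesions with theirs, rose.

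The cytoplasmic actins fell. Actg1 averaged 432 ± 19.6 CPM in p16+ against 556 ± 36.0 CPM in p16- (log2 fold change -0.37, adjusted p = 0.00417). Actb averaged 1327 ± 11.7 CPM in p16+ against 1551 ± 59.8 CPM in p16- (log2 fold change -0.23, adjusted p = 0.0496). The call of Actb was lost with RLE factors (0.0539), upper-quartile factors (0.0513) and no filter (0.0528), and without p16+ replicate 1, 2 or 3 or p16- replicate 3 (0.113 to 0.203). The transcription factors that control smooth muscle genes, named after their values were seen, did not pass. Srf averaged 63.5 ± 7.99 CPM in p16+ against 72.9 ± 4.99 CPM in p16- (adjusted p = 0.178). Its cofactor Myocd, specific to smooth and cardiac muscle, was scarce at 1.11 ± 0.27 CPM in p16+ against 0.885 ± 0.309 CPM in p16- (adjusted p = 0.731). The actin-sensing cofactors Mrtfa and Mrtfb had adjusted p-values of 0.803 and 0.996.

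Ordered by level as CPM per kilobase of exonic length, the leading genes of the set in p16+ were Tpm4 at 219, Rgs5 at 201, Tagln2 at 179.9 and Acta2 at 122. In p16- they were Tpm4 at 185, Tagln2 at 169, Rgs5 at 155 and Flna at 91.7, with Acta2 next at 79.0. The first 3 places in p16+ were separated in every library, while Acta2 and Cthrc1 (107) were not, nor were Cthrc1 and Flna (96.8). In p16- Tagln2 and Rgs5 changed places between libraries, while Flna lay above Acta2 in every library, narrowly in replicate 3 (92.9 against 91.8). Cthrc1 stood at place 5 in p16+ and at place 8 in p16-, where it had 45.8. Among mural markers the order in p16+ ran from Rgs5 through Ndufa4l2 (33.8), Mcam (26.8) and Des (24.0) to Abcc9 (18.0), Kcnj8 (15.9), Higd1b (5.09) and Cspg4 (4.95). Kcnj8 and Abcc9 changed places between libraries in both groups, and so did Higd1b and Cspg4. In p16- the mean of Cspg4 (5.49) was above that of Higd1b (5.04). The scarcest genes in both groups were Cnn1, at 0.485 in p16+ and 0.654 in p16-, and Lmod1 and Actg2, at 2.78 and 2.96 in p16+ and 2.33 and 2.32 in p16-.

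Inside each group, smooth muscle and mural genes often had their highest or lowest level in the same library, and actomyosin and fibrosis genes in another. In p16+, replicate 2 was the lowest for 6 of the 10 smooth muscle genes and the highest for 10 of the 14 actomyosin genes and both fibrosis genes. Replicate 1 of p16+ was the highest for 6 of the 10 smooth muscle genes and for 5 of the 8 mural markers. In p16-, replicate 2 was the lowest library for 8 of the 10 smooth muscle genes and for 6 of the 8 mural markers, while it was the highest for 9 of the 14 actomyosin genes and for both fibrosis genes. Replicate 3 of p16- was the highest for 9 of the 10 smooth muscle genes and for 5 of the 8 mural markers. With 3 libraries per group these orders are descriptions of single libraries. The same orders were not counted over all genes tested, so they are not shown to be particular to these roles.

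**Figure D4:**
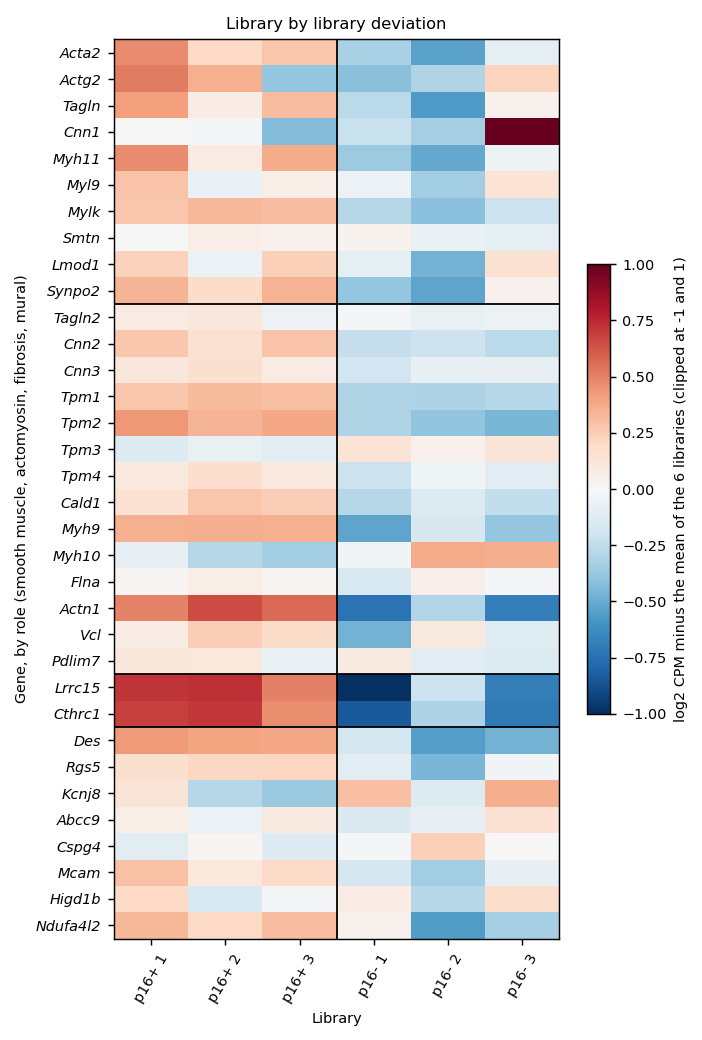
Log2 CPM of each gene minus its mean over the 6 libraries, clipped at -1 and 1, with the 3 p16+ libraries left of the 3 p16- libraries and horizontal lines between the roles. Lrrc15, Cthrc1 and Actn1 show the strongest contrast, p16- replicate 2 is bluest among smooth muscle and several mural genes, and Cnn1 is high in p16- replicate 3 alone.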

How the data were processed

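The authors deposited raw counts, whole numbers of read pairs assigned to each gene by featureCounts 1.6.0 over GENCODE vM21 exons, per the file headers, which show no setting for strand, for overlaps or for multi-mapping pairs. Reads were aligned with STAR 2.7.3a to GRCm38.p6 after bcl2fastq, per the submitters' processing notes. Identifiers were matched to vM21 symbols.

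Genes were filtered with filterByExpr, which kept 15903 genes holding 99.918% to 99.932% of the counts. TMM factors, CPM and the quasi-likelihood F test (robust, group alone) came from edgeR 4.0.16 in R 4.3.3, with Benjamini-Hochberg adjustment over all genes tested, and the fit was tested on simulated data. The common biological coefficient of variation was 0.158. Standard errors are the log2 fold change divided by the square root of F. An exact permutation test of 3 against 3 libraries cannot go below p = 0.1. Shares, levels and promoter elements are descriptions. The 34 genes, their roles and the other lists were chosen with earlier results of these data known. Named outside the set were Cdkn2a, up to 4 genes per list with the smallest p, Actb, Actg1 and genes that overlap the set, and any further gene was chosen after its values were seen. Genes that share over 10% of their exonic length with another gene are given with that share. Each library counted as a sample. Replicates of a group differed by more than counting noise, which does not show that they were separate animals. Alternatives were RLE and upper-quartile factors, library sizes alone, DESeq2 1.42.0, no filter, CPM of at least 1 in at least 3 libraries, a replicate block and leaving out each library.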

Additional observations from a re-analysis of the deposited data

How the results depend on the processing

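The number of the 34 genes called higher was 16 with library sizes alone, 20 with DESeq2, without a filter and with the replicate block, 19 with RLE or upper-quartile factors and the stricter filter, and 15 to 19 when 1 library was left out. The number called lower, 1, became 2 with library sizes alone, DESeq2 or no filter and 3 with the replicate block, and was 1 to 2 when 1 library was left out. Broadly expressed actomyosin genes called lower, 1, became 2 with library sizes alone, DESeq2 or the replicate block. Among mural genes Kcnj8 was called lower, a count of 1, without a filter or with the replicate block, and leaving out 1 library gave 0 to 1. Leaving out 1 library gave 3 to 5 smooth muscle genes called higher, 3 to 7 regulators and adhesion genes called higher and 1 to 2 other fibrosis genes called lower. Log2 fold changes that turned sign belonged to genes not called. With library sizes alone they were -0.00018 for Smtn, -0.018 for Abcc9 and -0.061 for Higd1b. When 1 library was left out, Cnn1 ran from -0.66 to 0.14, positive without p16- replicate 3, and Higd1b from -0.11 to 0.11, below 0 without p16+ replicate 1 or p16- replicate 2. The cause was not tested.

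The replicate block gave 3114 calls (1605 higher, 1509 lower) against 2660, and 20 members higher and 3 lower, adding Vcl as higher (adjusted p = 0.00376) and Tpm3 and Kcnj8 as lower (0.036 and 0.0225). No label says what same-numbered libraries shared. The correlations of their deviations were 0.03, 0.08 and -0.00. The p16+ replicate 2 correlated best with its own number, and p16+ replicates 1 and 3 did not. Correlations over so few libraries cannot decide whether same-numbered libraries shared an animal or a day. Leaving out 1 library gave 1887 to 2567 calls over all genes. Depth limits Cnn1, Actg2 and Higd1b most, the genes of the set with the lowest CPM and with standard errors of 0.43, 0.28 and 0.23 on the log2 scale.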
